A study of Rattus norvegicus with 12 samples.

Results

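Prevotellaceae, a family of anaerobic gut bacteria in the order Bacteroidales, was followed through a 16S rRNA gene survey of rat faeces. The survey sequences part of a ribosomal gene that differs between bacterial taxa and reports amplicon sequence variants (ASVs), exact sequences inferred from the reads. Members were all ASVs whose lineage in the deposited table carries the family name, 237 of 7240 ASVs. Rats had a sham operation (Sham), a model of subarachnoid haemorrhage (SAH), or the model and tetrandrine, a calcium channel blocker obtained from a medicinal plant (SAH+Tet). A further group had the model, tetrandrine and ABX, a common short form for antibiotics (SAH+Tet+ABX). Each of the 4 groups had 3 libraries. All SAH, SAH+Tet and SAH+Tet+ABX rats carried the haemorrhage model, and both SAH+Tet and SAH+Tet+ABX rats received tetrandrine. Strain, age, drugs in the ABX mixture, doses and sampling times are not stated in the sources used here. A second treatment label, the same in every library, names a cell differentiation protocol that does not match faeces and was not used. Faeces were collected to ask whether the composition of the gut community differed among these groups. Nothing in the labels ties libraries to separate rats, so p-values measure only the spread between these libraries, which may be technical.

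Prevotellaceae live mainly by breaking down plant polysaccharides, and their fermentation yields mostly acetate and succinate, with propionate from some strains. Prevotella is the best studied genus, is common in herbivores and in people on fibre-rich diets, and is often set against Bacteroides. Alloprevotella was split from Prevotella and is a common member of rodent gut communities. The NK3B31, Ga6A1 and UCG names belong to groups in reference databases that are known mostly from their sequences and largely lack cultured members.

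Libraries held 211450 to 531426 reads and fell into a lower and a higher depth class. The lower class, 211450 to 248285 reads, held all 3 SAH+Tet+ABX libraries, SAH+Tet 3 and SAH 1. The other 7 libraries had 448795 to 531426 reads. SAH+Tet 3 and SAH 1 stood apart from the other libraries of their own groups in which Prevotellaceae they held, as described below, so the counts of calls and main fold changes between pairs of groups are also given without them. Leaving them out was not planned for SAH+Tet+ABX against SAH+Tet. For the other contrasts it equals a planned fit of the higher depth class alone. The libraries were picked from the same values that are tested, so fits without them are descriptions and give no independent support. Depth class and group cannot be told apart for SAH+Tet+ABX, which has no library in the higher class, or for Sham, which has none in the lower class. All values are relative: with no bacterial load, a lower share of reads cannot be told apart from a rise of other taxa. Intervals were not attached to shares, since the spread between libraries far exceeded counting error. The limit allowed by a count of 0 was set at 3 reads of the library, and it covers counting error only. A fold given as "at least" sets the mean of 1 group against the mean limit of the other, so single libraries can lie nearer to that limit.

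Prevotellaceae made up between 0.665% and 11.0% of reads. In SAH+Tet+ABX libraries 1, 2 and 3 the family took 0.665%, 5.83% and 6.08% of reads. It took 6.80%, 8.44% and 5.09% in SAH+Tet, 2.23%, 6.86% and 7.55% in SAH, and 3.61%, 11.0% and 2.51% in Sham. The groups overlapped widely, with means of 4.19% ± 3.06, 6.78% ± 1.67, 5.55% ± 2.89 and 5.71% ± 4.62 in that order of groups (SD, n = 3 each). No contrast was called for the family total by edgeR's quasi-likelihood test, adjusted over 93 families at a threshold of 0.05. Over the 93 families it called 30.1% for SAH+Tet+ABX against SAH+Tet, 0% for SAH+Tet against SAH and 2.15% for SAH against Sham. The log2 fold change was -0.28 ± 0.79 for SAH+Tet+ABX against SAH+Tet (SE, edgeR adjusted p = 0.784). It was 0.33 ± 0.51 for SAH+Tet against SAH (edgeR adjusted p = 0.804) and 0.29 ± 0.51 for SAH against Sham (edgeR adjusted p = 0.733). Without SAH 1 and SAH+Tet 3 these values were -0.47, -0.039 and 0.71, again with no call (edgeR adjusted p between 0.393 and 0.968). Among all 91 families tested, 44 were then called for SAH+Tet+ABX against SAH+Tet. For SAH+Tet against SAH it was 5.49% of 91, and for SAH against Sham 26.4%. Another scaling or set of libraries turned the sign of each of the near-zero log2 fold changes of the family. Behind similar totals lay different members, as the plot of the family by genus shows.

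**Figure D1:**
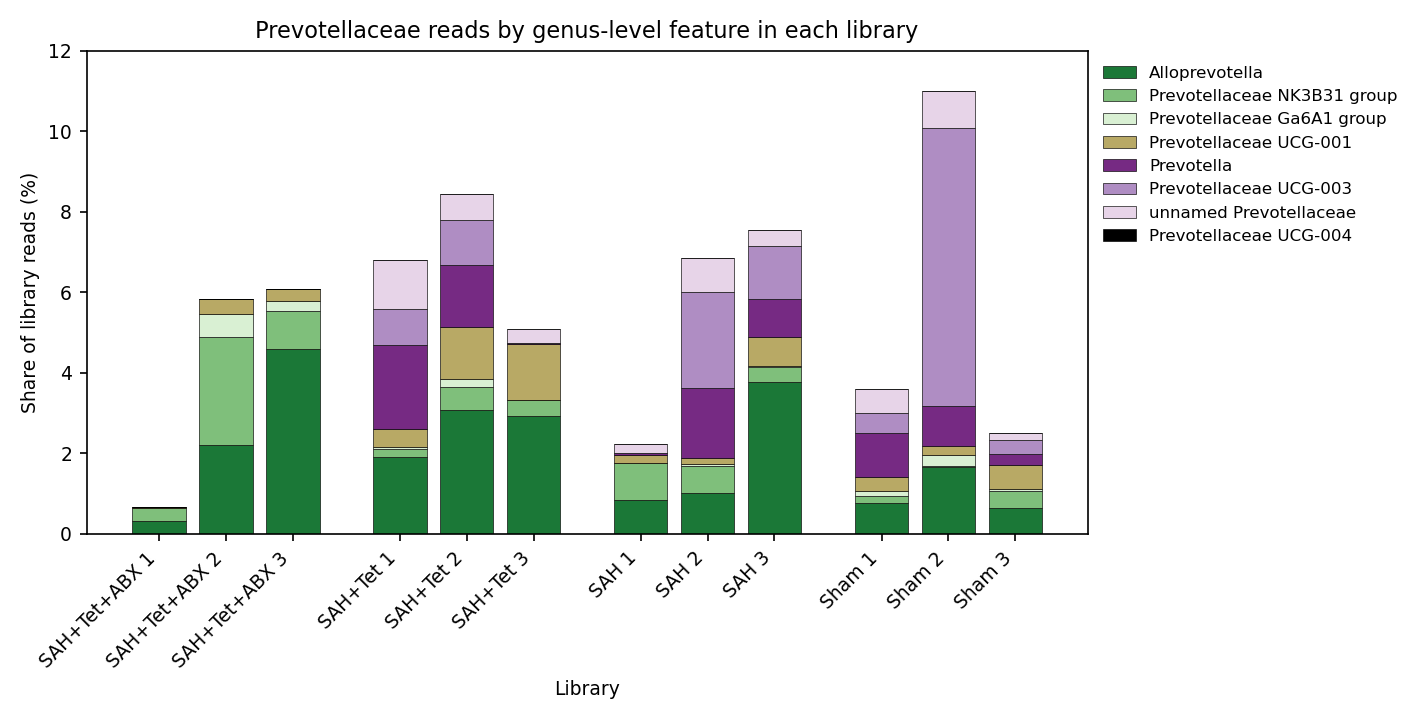
Stacked bars give the share of library reads (%) taken by each genus-level feature of Prevotellaceae in each of the 12 libraries, with libraries on the x axis grouped as SAH+Tet+ABX, SAH+Tet, SAH and Sham. SAH+Tet+ABX bars hold no visible Prevotella, UCG-003 or unnamed Prevotellaceae, and Sham 2 reaches 11.0% mainly through UCG-003.

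The 237 ASVs carried 7 genus names, and the 87 ASVs with none formed an eighth feature called unnamed Prevotellaceae here. ASVs have no identifier in the deposited table, so they are numbered within their feature from the highest mean share over the 12 libraries. Alloprevotella held 28 ASVs and 31.7% of the family's reads, and a single ASV gave 60.2% of these. UCG-003 held 22 ASVs and 24.0% of the reads. Prevotella, with 67 ASVs, held 15.6%. Unnamed Prevotellaceae had the most ASVs and 9.07% of the reads, spread so evenly that its largest ASV gave 12.3% of them. The NK3B31 group (5 ASVs, 8.96% of the reads) and UCG-001 (22 ASVs, 8.56%) were each led by 1 ASV, with 83.3% and 76.6% of their reads. The Ga6A1 group (5 ASVs, 2.08%) and UCG-004 (1 ASV, 61 reads in all) were the smallest.

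Alloprevotella was present in every library. Its share was 0.320%, 2.21% and 4.59% in SAH+Tet+ABX, 1.91%, 3.08% and 2.93% in SAH+Tet, 0.833%, 1.01% and 3.76% in SAH, and 0.777%, 1.65% and 0.646% in Sham. The highest and the lowest of the 12 values both lay in SAH+Tet+ABX, and that group spanned all others. Alloprevotella ASV 1, the most abundant ASV of the family, took 0.265%, 1.78% and 3.63% in SAH+Tet+ABX and 0.926%, 1.90% and 2.38% in SAH+Tet. It took 0.614%, 0.328% and 2.76% in SAH, and 0.441%, 0.0401% and 0.381% in Sham. SAH and Sham overlapped for this ASV, since SAH 2 lay below Sham 1 and Sham 3.

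The NK3B31 group took 0.317%, 2.69% and 0.936% of reads in SAH+Tet+ABX, 0.196%, 0.564% and 0.413% in SAH+Tet, 0.936%, 0.671% and 0.389% in SAH, and 0.171%, 0.0455% and 0.418% in Sham. Its leading ASV was at 0.787%, 0.560% and 0.273% in SAH, above all Sham libraries at 0.152%, 0.0267% and 0 of 519889 reads. In Sham 3, which lacked NK3B31 ASV 1, the group consisted of NK3B31 ASV 2, 3 and 4 at 0.205%, 0.113% and 0.0991%, the highest values of these 3 ASVs in any library. In SAH+Tet+ABX the reverse held: NK3B31 ASV 1 was the only ASV of the group with reads. SAH+Tet 1, of the higher depth class, also held only 1 ASV of the group.

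UCG-001 was lower in all 3 SAH+Tet+ABX libraries, at 0.0213%, 0.369% and 0.299%, than in SAH+Tet, at 0.450%, 1.29% and 1.37%, as were 32.1% of the genus-level features of the table. SAH libraries held 0.187%, 0.166% and 0.712% and Sham libraries 0.346%, 0.201% and 0.590%. UCG-001 ASV 1 gave all of the UCG-001 reads in SAH+Tet+ABX, with 0.0213%, 0.369% and 0.299%. It had 0.0958%, 0.987% and 1.34% in SAH+Tet, so that the ranges of that ASV overlapped although those of the genus-level feature did not.

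The Ga6A1 group took 0.00662%, 0.558% and 0.253% in SAH+Tet+ABX, 0.0596%, 0.208% and 0 in SAH+Tet, 0, 0.0450% and 0.0238% in SAH, and 0.108%, 0.273% and 0.0479% in Sham. The only 2 libraries without it were SAH+Tet 3 and SAH 1. All Ga6A1 reads of SAH+Tet+ABX belonged to Ga6A1 ASV 1, which had 14, 1307 and 619 reads there and 0 in all SAH+Tet and SAH libraries. Sham 1 held 371 reads of it, Sham 3 held 132 and Sham 2 none.

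Prevotella was nearly absent from SAH+Tet+ABX, with 0, 5 and 0 reads, or 0.00214% in the second library. SAH+Tet libraries held 2.08%, 1.55% and 0.0462%, SAH libraries 0.0572%, 1.73% and 0.946%, and Sham libraries 1.12%, 1.01% and 0.279%. SAH+Tet 3 and SAH 1 were more than an order of magnitude below the other libraries of their groups, and still above every SAH+Tet+ABX library. Prevotella ASV 1 was at 0.691% and 0.948% in SAH+Tet 1 and 2, at 0.339% and 0.188% in SAH 2 and 3, and at 0.306%, 0.168% and 0.0696% in Sham. It had 0 reads in SAH+Tet 3 and SAH 1, and 2 reads in the 3 SAH+Tet+ABX libraries. Prevotella ASV 2 peaked instead in SAH 2 and 3, at 0.485% and 0.253%, against 0.0637%, 0.136% and 0.0160% in Sham, and had no reads in SAH 1.

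UCG-003 was close to all or none across libraries. It had 0 reads in all 3 SAH+Tet+ABX libraries and in SAH+Tet 3, and 3 reads in SAH 1. SAH+Tet 1 and 2 held 0.888% and 1.11%, SAH 2 and 3 held 2.37% and 1.31%, and Sham held 0.480%, 6.89% and 0.346%. Sham 2 owed its level to UCG-003 ASV 1, with 5.24% of all reads there, against 0.250% in Sham 1 and 0.192% in Sham 3. UCG-003 ASV 2 was the main UCG-003 ASV in SAH 2 and 3, at 1.41% and 0.946%, against 0.0585%, 0.00742% and 0.0390% in Sham. UCG-003 ASV 3 reached 0.698% in SAH 2 and lay between 0.0662% and 0.213% in the other higher-depth libraries. UCG-003 ASV 4 was at 1.20% in Sham 2, its highest value, and absent from SAH 3.

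Unnamed Prevotellaceae had 0 reads in all 3 SAH+Tet+ABX libraries. Every other library held it, with 1.22%, 0.635% and 0.337% in SAH+Tet, 0.220%, 0.860% and 0.409% in SAH, and 0.614%, 0.934% and 0.180% in Sham. SAH+Tet 3 and SAH 1 were the lowest of their groups but within the range of Sham. Unnamed Prevotellaceae ASV 1, its most abundant ASV, was again absent from both of these libraries, while unnamed Prevotellaceae ASV 2 was at its highest, 0.136%, in SAH+Tet 3. UCG-004 was close to the detection limit, with 15 reads in SAH+Tet 2, 30 and 14 reads in SAH 2 and SAH 3, 2 reads in Sham 3 and none elsewhere.

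**Figure D2:**
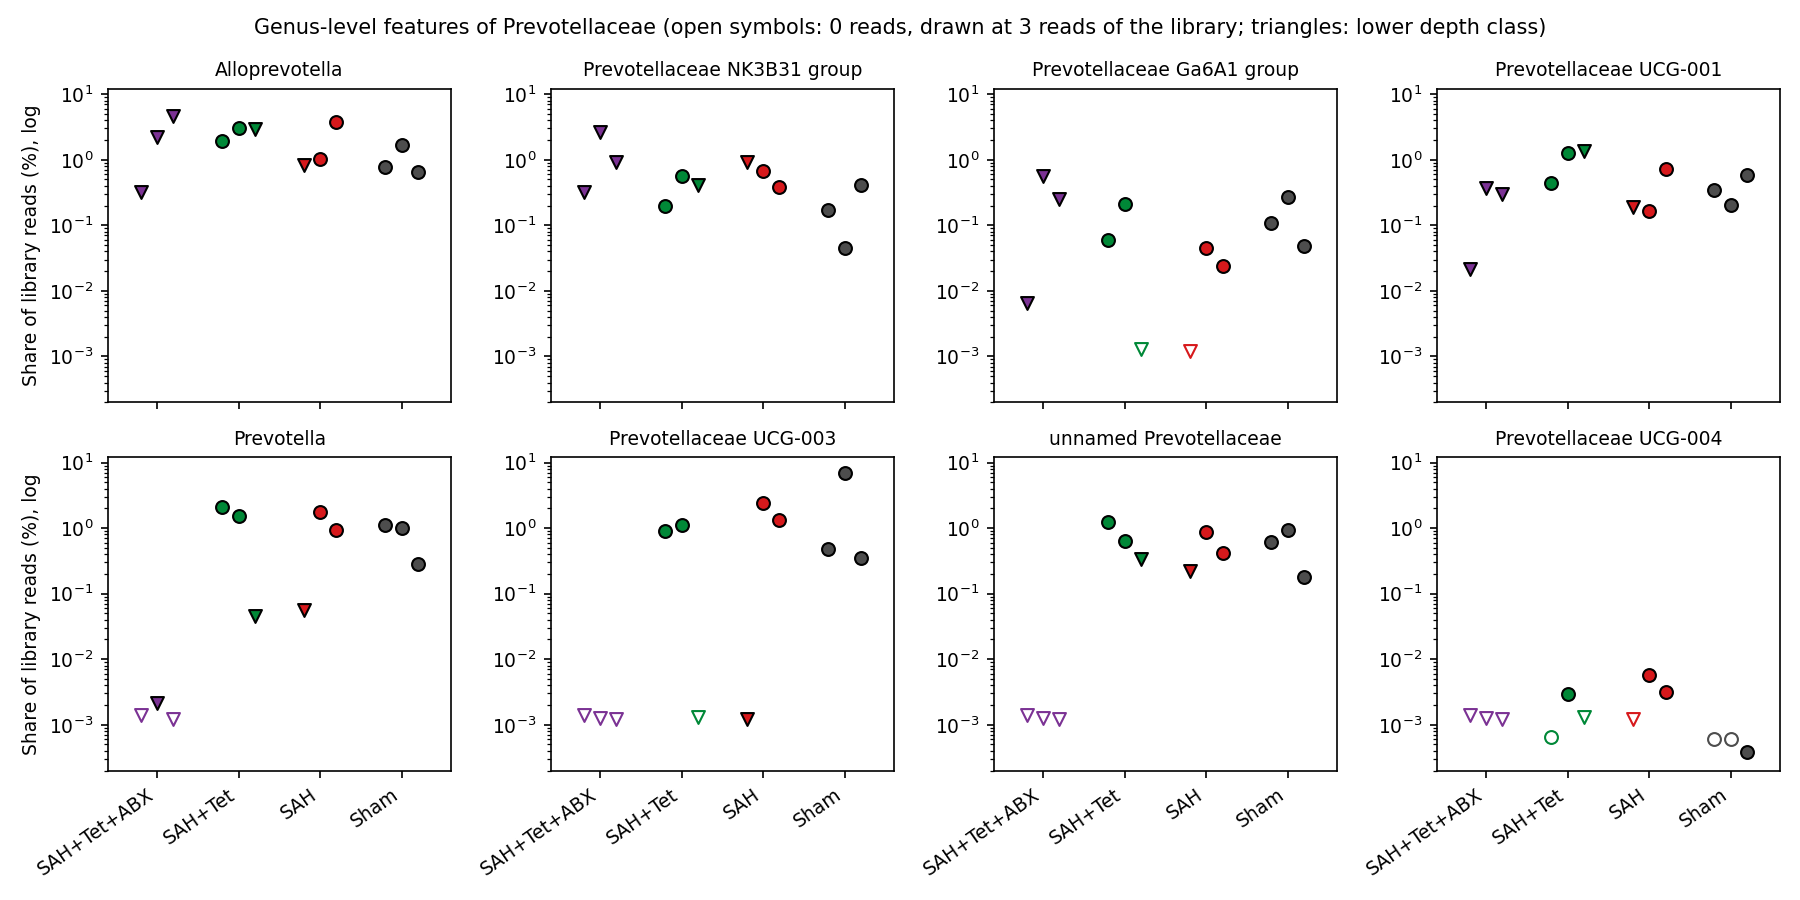
Each panel shows the share of library reads (%, log axis) of 1 genus-level feature, with 1 point per library and the groups SAH+Tet+ABX, SAH+Tet, SAH and Sham from left to right. Open symbols mark 0 reads, drawn at 3 reads of that library, and triangles mark the lower depth class. Prevotella, UCG-003 and unnamed Prevotellaceae are at or near the limit in SAH+Tet+ABX, whereas Alloprevotella is present in all 12 libraries.

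ASVs fell into those that the lower-depth libraries held and a larger set that they did not. Of the 237 ASVs, 203, or 85.7%, had 0 reads in all 5 lower-depth libraries. Most ASVs of the table did so too. The share was 57.1% of 553 ASVs in Muribaculaceae, the other large Bacteroidales family. It was 62.5% of the 7001 ASVs outside Prevotellaceae, Muribaculaceae included and Eukaryota left out. These 203 ASVs made up 59.6% and 37.6% of the family's reads in SAH+Tet 1 and 2, 61.4% and 33.3% in SAH 2 and 3, and 47.1%, 89.2% and 29.1% in Sham. Rare ASVs were a small part of these reads but not of the number of ASVs. The 119 ASVs seen in a single library were 50.2% of the 237. They held at most 0.806% of the family's reads in any library. Among the 28 ASVs with reads in all 7 higher-depth libraries, 19 had none in any lower-depth library, or 67.9%. The same share was 26.6% of 79 ASVs in Muribaculaceae and 23.0% of 470 among all ASVs outside Prevotellaceae, Muribaculaceae included. ASVs of 1 family share libraries and are not replicates, so these shares carry no test.

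Among the 34 ASVs that did reach a lower-depth library, 9 had reads in SAH+Tet+ABX, and 5 had reads in all 3 of its libraries. The 5 were Alloprevotella ASV 1 and ASV 2, NK3B31 ASV 1, UCG-001 ASV 1 and Ga6A1 ASV 1. They held between 99.3% and 100% of the family's reads in SAH+Tet+ABX. In SAH+Tet 3 they held 91.6% and in SAH 1 78.2%, against 20.7% and 44.6% in SAH+Tet 1 and 2, 15.4% and 57.0% in SAH 2 and 3, and 27.7%, 0.796% and 41.2% in Sham. SAH+Tet 3 and SAH 1 shared 16 ASVs, 80% of those in SAH+Tet 3 and 61.5% of those in SAH 1. A set of 25 ASVs with reads in at least 1 of these libraries was absent from all SAH+Tet+ABX libraries, and it took 8.28% of the family's reads in SAH+Tet 3 and 19.6% in SAH 1. Alloprevotella ASV 1, Alloprevotella ASV 2 and UCG-001 ASV 1 were the 3 ASVs found in all 12 libraries.

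**Figure D3:**
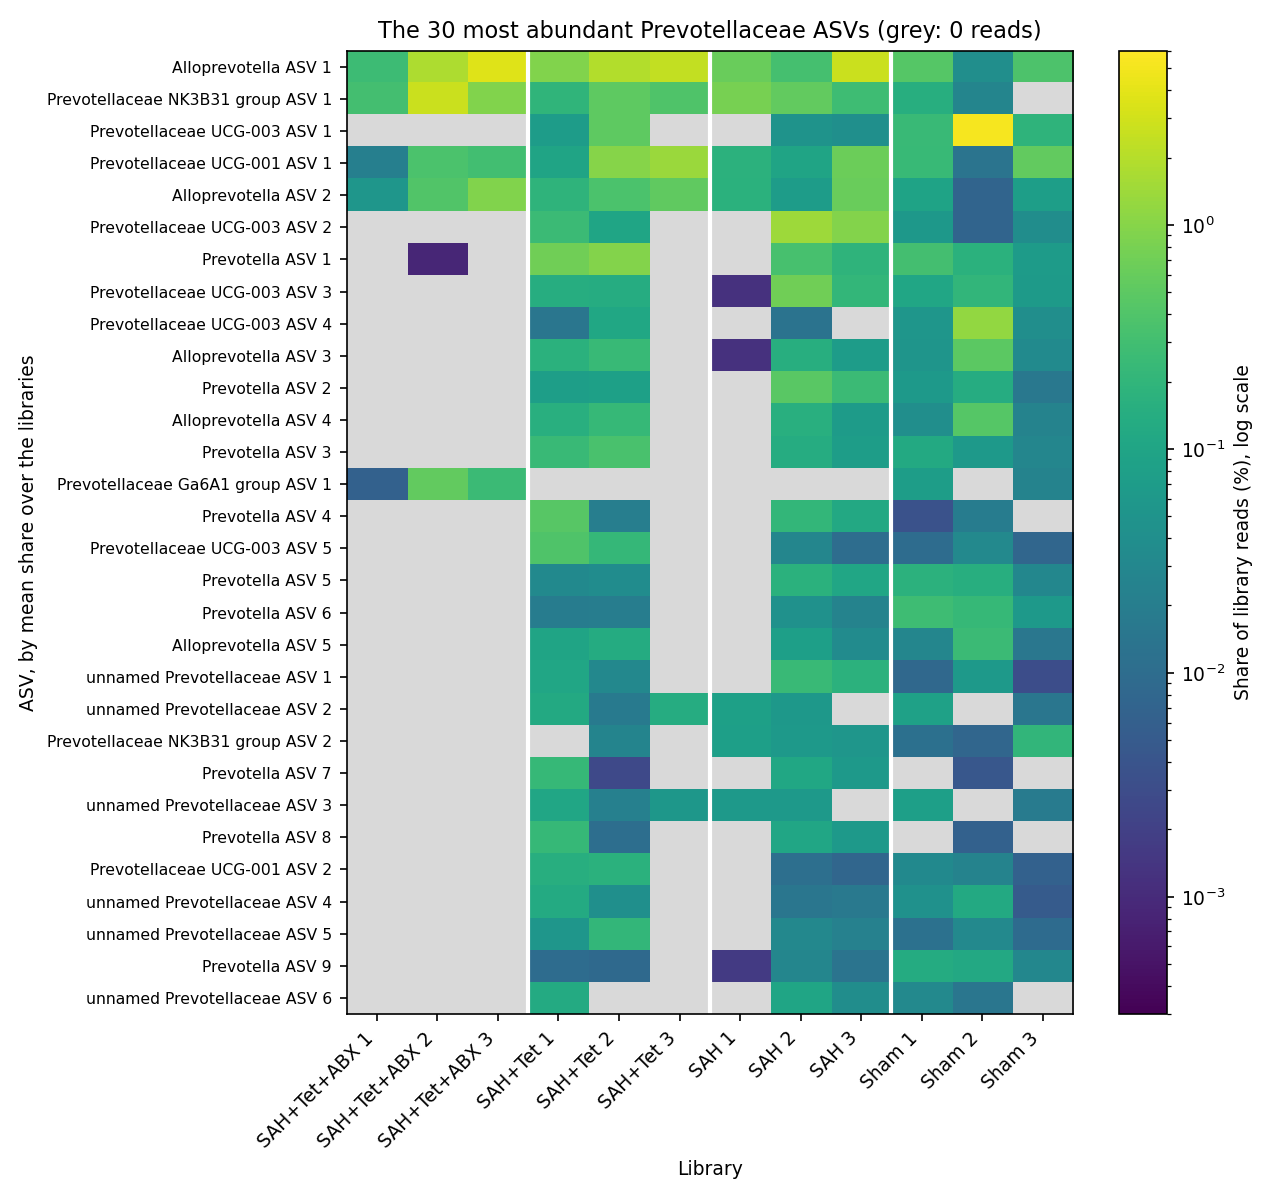
The heat map shows the 30 most abundant Prevotellaceae ASVs (rows, by mean share) in the 12 libraries (columns, SAH+Tet+ABX to Sham), coloured by share of library reads (%, log scale), with grey for 0 reads. Grey fills most rows in SAH+Tet+ABX 1 to 3, SAH+Tet 3 and SAH 1, and Sham 2 holds the highest cell, UCG-003 ASV 1 at 5.24%.

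The number of Prevotellaceae ASVs detected was 5, 8 and 7 in SAH+Tet+ABX, 123, 101 and 20 in SAH+Tet, 26, 120 and 71 in SAH, and 77, 96 and 71 in Sham. The numbers moved little at a common depth: at 211450 reads the expected numbers were 5, 7.99 and 7.00 in SAH+Tet+ABX and 113.0, 96.7 and 20.0 in SAH+Tet. They were 25.7, 110.5 and 68.9 in SAH, and 75.2, 91.9 and 68.9 in Sham. At that depth SAH+Tet+ABX averaged 6.66 ± 1.52 ASVs and SAH+Tet 76.6 ± 49.7 (SD, n = 3 each), a difference of -69.9 (two-sided exact permutation test, p = 0.1, the smallest that 3 against 3 libraries can give). Within the lower depth class the same difference was -13.3, between 3 SAH+Tet+ABX libraries and SAH+Tet 3 alone. SAH averaged 68.4 ± 42.4 and Sham 78.7 ± 11.9 (SD, n = 3 each), and the differences SAH+Tet minus SAH (8.21, exact p = 0.9) and SAH minus Sham (-10.3, exact p = 0.7) were small against the spread. Within the higher depth class they were 15.2 and 11.0. ASVs of all taxa, at full depth, numbered 440, 661 and 623 in SAH+Tet+ABX and 2558, 2476 and 1329 in SAH+Tet. They numbered 1171, 2259 and 1985 in SAH, and 2301, 2300 and 2416 in Sham. The lower-depth libraries were the lowest here too, so low ASV numbers were not limited to Prevotellaceae. These counts of all taxa were not brought to a common depth.

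Reads were also more concentrated where ASVs were few. The 3 largest ASVs took 95.8%, 86.4% and 90.3% of the family's reads in SAH+Tet+ABX, 30.5%, 45.5% and 83.8% in SAH+Tet, 70.6%, 38.9% and 57.7% in SAH, and 28.4%, 63.0% and 45.3% in Sham. The effective number of ASVs, the inverse Simpson index, was 2.54, 3.08 and 2.45 in SAH+Tet+ABX against 20.4, 10.8 and 3.26 in SAH+Tet. It was 4.61, 13.3 and 5.92 in SAH and 20.1, 4.08 and 10.7 in Sham. Sham 2 combined 96 ASVs with a low effective number, and UCG-003 ASV 1 alone gave 47.6% of its Prevotellaceae reads.

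**Figure D4:**
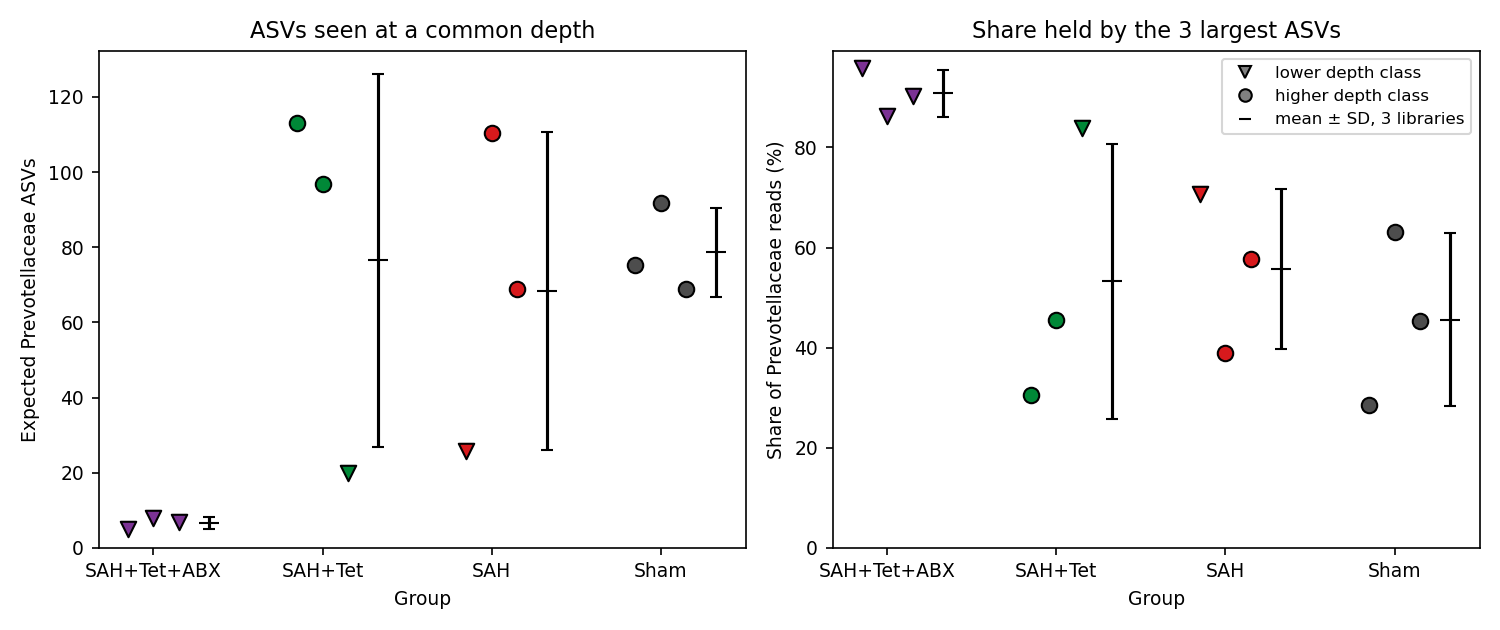
The left panel shows the expected number of Prevotellaceae ASVs at 211450 reads and the right panel the share of the family's reads (%) held by its 3 largest ASVs, with 1 point per library by group and bars for mean ± SD of 3 libraries. Triangles mark the lower depth class: all SAH+Tet+ABX libraries have 5 to 7.99 ASVs, and SAH+Tet 3 and SAH 1 have 20.0 and 25.7.

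SAH+Tet+ABX was compared with SAH+Tet to ask what the ABX treatment changed on top of tetrandrine. Of the 8 genus-level features, 3 fell and none rose by edgeR's quasi-likelihood test on all 12 libraries. Over all taxa, 37.2% of 196 genus-level features were called, 28.1% lower and 9.18% higher, so that 3 of 8 is near the background. Unnamed Prevotellaceae was at least 557.9-fold lower (0 against 0.730% ± 0.448, edgeR adjusted p = 0.000695). UCG-003 was at least 508.2-fold lower (0 against 0.665% ± 0.586, edgeR adjusted p = 0.0359), measured against 3 reads per SAH+Tet+ABX library. Prevotella fell too (0.000712% ± 0.00123 against 1.23% ± 1.06, edgeR adjusted p = 0.00863). Its SAH+Tet+ABX mean rests on 5 reads of 1 library and lies below the limit of 3 reads per library, 0.00131%, so no exact fold is given. The SAH+Tet mean was 936.5 times that limit. The fitted log2 fold change of Prevotella was -10.45, and it ran from -15.11 without SAH+Tet+ABX 2, the library with the 5 reads, to -9.89 without SAH+Tet+ABX 3.

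The calls for Prevotella and unnamed Prevotellaceae remained with any 1 library of the contrast left out. UCG-003, which SAH+Tet 3 also lacked, lost its call when SAH+Tet 1, SAH+Tet 2 or any SAH+Tet+ABX library was left out (edgeR adjusted p between 0.0686 and 0.0888), and had 0.0176 without SAH+Tet 3. Without SAH 1 and SAH+Tet 3, all 3 features were called (edgeR adjusted p between 0.00152 and 0.00226), against 45.6% of 193 in the table. SAH+Tet 3 was the lowest SAH+Tet library for all 3 features, so leaving it out raised the SAH+Tet mean. These calls therefore add no support. With depth class as a block, UCG-003 had an edgeR adjusted p of 0.433, while Prevotella (0.0164) and unnamed Prevotellaceae (0.00109) were still called. Within the lower class, the SAH+Tet library held 0.0462% Prevotella and 0.337% unnamed Prevotellaceae, against at most 0.00214% and 0 in SAH+Tet+ABX. The part of depth class in these results was not tested further.

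The other genus-level features did not pass the test. Alloprevotella differed by -0.01 ± 0.90 on the log2 scale (2.37% ± 2.14 in SAH+Tet+ABX and 2.64% ± 0.638 in SAH+Tet, edgeR adjusted p = 1). The NK3B31 group differed by 1.87 ± 0.99 (edgeR adjusted p = 0.152), at 1.31% ± 1.23 in SAH+Tet+ABX and 0.391% ± 0.185 in SAH+Tet. The Ga6A1 group differed by 1.82 ± 2.11 (edgeR adjusted p = 0.515) and UCG-001 by -2.06 ± 1.07 (edgeR adjusted p = 0.146). The NK3B31 group was called higher by DESeq2 and by limma on centred log-ratio values, and the Ga6A1 group was called higher with depth class as a block, settings that called 53.6%, 37.8% and 25% of all features tested. UCG-004 had 0 reads in SAH+Tet+ABX and a mean of 0.000967% in SAH+Tet, below the 3-read limit of SAH+Tet+ABX (0.00131%), so no fold is given.

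At the level of single ASVs, 94 of the 237 passed the filter of 10 reads in 3 libraries, and 2 of them fell in SAH+Tet+ABX by edgeR's quasi-likelihood test. Of all 2394 ASVs tested, 10.3% were called, 9.73% lower. Unnamed Prevotellaceae ASV 7 had no reads in SAH+Tet+ABX, against 0.0343%, 0.0149% and 0.0282% in SAH+Tet, at least 19.7-fold lower (edgeR adjusted p = 0.0170). UCG-001 ASV 4 had none, against 0.0109%, 0.0103% and 0.0198%, at least 10.4-fold lower (edgeR adjusted p = 0.0198). Both belong to the few ASVs present in every SAH+Tet library, SAH+Tet 3 included. UCG-001 ASV 4 lost its call when any SAH+Tet+ABX library was left out (edgeR adjusted p between 0.0531 and 0.0600), and unnamed Prevotellaceae ASV 7 lost it without SAH+Tet+ABX 3 (0.0509). The median log2 ratio of group mean shares, with means under 3 reads per library set to that limit, was -2.91 over the 94 ASVs and -1.44 over all 2394. Since an ASV low in 1 group passed the filter only through other groups, this median describes the tested ASVs and not all 237.

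The count of ASVs called depended on 1 library and on the tool. Without SAH+Tet 3, 26 of 92 Prevotellaceae ASVs were called against 21.5% of the table. Without SAH+Tet 3 and SAH 1 there were 44 of 90, all lower, against 32.6% of the table. Leaving out SAH+Tet 1 gave 3 (144 of 2160 in the table), and leaving out SAH+Tet 2 gave 2 (146 of 2187). Leaving out SAH+Tet+ABX 1, 2 or 3 gave 1, 1 and 0, against 69 of 2341, 79 of 2326 and 0 of 2345. DESeq2 called 52 of 94, 51 of them lower, against 36.5% of the table.

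Complete presence or absence gave a similar picture. Against 437 of 7238 ASVs in the table, 5 of the family's 237 had no reads in SAH+Tet+ABX and reads in all SAH+Tet libraries. The most abundant were unnamed Prevotellaceae ASV 2, with 0.125%, 0.0176% and 0.136% in SAH+Tet (at least 71.1-fold lower), and unnamed Prevotellaceae ASV 3, with 0.105%, 0.0228% and 0.0572% (at least 47.1-fold lower). In the other direction it was 44 of 7238 in the table and 1 of 237 in the family. That ASV, Ga6A1 ASV 1, was at 0.00662%, 0.558% and 0.253% in SAH+Tet+ABX and at 0 in SAH+Tet. Its SAH+Tet+ABX mean, 0.273% ± 0.276, was at least 319.9-fold higher. SAH+Tet+ABX 1, with 14 reads, lay far below that mean and much nearer to the limit of SAH+Tet, 0.00085%. The shares that do not overlap between the groups were 3.63% higher and 19.2% lower over all ASVs, and 1 higher and 5 lower among the 94.

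SAH+Tet was compared with SAH to ask what tetrandrine changed in the model. No genus-level feature of the family was called by edgeR's quasi-likelihood test on the 9 libraries without ABX, nor was any of the 188 in the table (0%). At an unadjusted p under 0.05 the counts were 0 of 8 and 19.7% of 188, and DESeq2 called none of the 8 and 16% of the table. UCG-001 had the largest value relative to its error, a log2 difference of 1.38 ± 0.72 (1.03% ± 0.508 in SAH+Tet, 0.355% ± 0.309 in SAH, edgeR adjusted p = 0.319). The NK3B31 group differed by -1.06 ± 0.86 (0.391% ± 0.185 in SAH+Tet, 0.666% ± 0.273 in SAH, edgeR adjusted p = 0.564), and Alloprevotella by 0.34 ± 0.61 (edgeR adjusted p = 0.839). Prevotella (0.26 ± 1.41), UCG-003 (-1.0 ± 2.44) and unnamed Prevotellaceae (0.28 ± 0.83) had errors larger than their values, and SAH+Tet 3 and SAH 1 lay far from the rest of their groups. Without these libraries none of the 8 was called either, against 0.546% of 183 in the table. UCG-001 was then at 0.96 (edgeR adjusted p = 0.591), the NK3B31 group at -0.50, Prevotella at 0.40, UCG-003 at -0.91 and unnamed Prevotellaceae at 0.50 on the log2 scale.

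None of the 93 tested ASVs passed for SAH+Tet against SAH by edgeR, as for all 2283 ASVs of the table (0%), with 2 of 93 and 20.8% at an unadjusted p under 0.05. Without SAH 1 and SAH+Tet 3 the edgeR counts were 0 of 89 and 0% of 2076, with 5 of 89 at an unadjusted p under 0.05. DESeq2 called 3 of 93, 2 of them higher, and 12.9% of the table. NK3B31 ASV 2, 3 and 4 were each lower in every SAH+Tet library than in every SAH library, where 6.22% of all ASVs tested behaved so. NK3B31 ASV 2 was at 0, 0.0261% and 0 in SAH+Tet and at 0.0810%, 0.0628% and 0.0541% in SAH. NK3B31 ASV 3 was at 0, 0.0143% and 0.0141% in SAH+Tet and at 0.0350%, 0.0241% and 0.0319% in SAH. No ASV of the family was higher without overlap, against 9.81% of the table. The median log2 fold change of the 93 ASVs was 0.43 and that of all 2283 was 0.15. As ratios of mean shares, with the 3-read limit in place of lower means, the medians were 0.56 and 0.22.

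SAH was compared with Sham to ask what the haemorrhage model changed. Again no genus-level feature of the family was called, and none of the 188 in the table (0%), by edgeR's quasi-likelihood test. At an unadjusted p under 0.05 the counts were 1 of 8 and 29.3%, and DESeq2 called none of the 8 and 25.5% of the table. The 1 feature was the NK3B31 group, with a log2 difference of 2.09 ± 0.89 (0.666% ± 0.273 in SAH, 0.211% ± 0.190 in Sham, edgeR adjusted p = 0.165). Alloprevotella differed by 1.10 ± 0.61 (1.87% ± 1.64 in SAH, 1.02% ± 0.547 in Sham, edgeR adjusted p = 0.278). The Ga6A1 group, at 0.0229% ± 0.0225 in SAH and 0.143% ± 0.117 in Sham, was lower in every SAH library than in every Sham library, as were 22.9% of all features tested. Its log2 difference was -2.31 ± 2.17 (edgeR adjusted p = 0.538).

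The table as a whole, but not the family, gained genus-level calls for SAH against Sham in other fits. Without SAH 1 and SAH+Tet 3, 13.1% of 183 features were called, 21 of them higher and 3 lower, and none of the 8 Prevotellaceae features. Leaving out SAH 1 alone gave 1 of 185. With depth class as a block 15.4% of 188 were called, again none of the 8. Without both libraries the log2 difference was 1.45 for the NK3B31 group (edgeR adjusted p = 0.357), 1.33 for Alloprevotella (0.250) and -1.96 for the Ga6A1 group (0.238).

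At the ASV level 0 of 93 passed for SAH against Sham by edgeR (0% of 2283), with 11 of 93 and 24.2% at an unadjusted p under 0.05 and a lowest edgeR adjusted p of 0.110. Without SAH 1 and SAH+Tet 3 it was 0 of 89 and 0% of 2076, with 11 of 89 at an unadjusted p under 0.05 and a lowest edgeR adjusted p of 0.0723 in the family. DESeq2 called 9 of 93, 5 of them higher, and 17.8% of the table. NK3B31 ASV 1 and Alloprevotella ASV 8 were higher in every SAH library than in every Sham library, 2 of 93 against 7.01% of the table. Alloprevotella ASV 8 was at 0.0495%, 0.0196% and 0.0646% in SAH and at 0.0139%, 0 and 0.00943% in Sham. Without overlap in the other direction were 13 of 93 ASVs, against 23.7% of the table. UCG-003 ASV 1 was the most abundant, at 0, 0.0493% and 0.0414% in SAH against 0.250%, 5.24% and 0.192% in Sham.

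Some ASVs of Sham had no reads in any SAH library. There were 5 of the family's 237 with reads in all Sham libraries, all unnamed Prevotellaceae, against 297 of 7238 in the table. Unnamed Prevotellaceae ASV 20 was at 0.0163%, 0.0391% and 0.00558% in Sham, at least 25.0-fold lower in SAH. Unnamed Prevotellaceae ASV 22 was at 0.00565%, 0.0223% and 0.0169% in Sham, at least 18.4-fold lower in SAH, and had no reads in SAH+Tet or SAH+Tet+ABX either. No ASV of the family had the opposite pattern, against 74 of 7238 in the table. The median log2 fold change of the 93 ASVs was -0.043 and that of all 2283 was -0.67, or -0.35 and -0.71 as ratios of mean shares with the 3-read limit.

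Over all 4 groups, 2 of 8 genus-level features differed by edgeR's F-test, unnamed Prevotellaceae (edgeR adjusted p = 0.00315) and Prevotella (0.0301), against 32.7% of 196 in the table. Leaving out 1 library kept the call for unnamed Prevotellaceae in all 12 cases (0.00549 to 0.0109), while that for Prevotella ranged from 0.0182 to 0.0827. Among ASVs, 3 of 94 differed, against 18.0% of 2394: unnamed Prevotellaceae ASV 7, unnamed Prevotellaceae ASV 22 and UCG-001 ASV 4, each with an edgeR adjusted p of 0.0410. With depth class as a block none of the 94, and none of the 2394, was called, and at an unadjusted p under 0.05 the counts were 14 of 94 and 33.9% of the table.

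Relative to its order, the family was set against Muribaculaceae, polysaccharide degraders that dominate Bacteroidales in rodents. The ratio of Prevotellaceae to Muribaculaceae reads was 0.0671, 0.170 and 0.196 in SAH+Tet+ABX, 0.577, 0.990 and 0.297 in SAH+Tet, 0.176, 0.513 and 0.494 in SAH, and 0.310, 1.56 and 0.236 in Sham. All SAH+Tet+ABX values lay below all SAH+Tet values, and SAH 1 lay within the SAH+Tet+ABX range. No difference of the log2 ratio among the 4 groups passed an exact permutation test of the F statistic over 369600 arrangements (p = 0.144, and 0.363 when permuted only within depth class). For SAH+Tet+ABX minus SAH+Tet it differed by -2.08 (exact p = 0.1, the smallest possible). It differed by 0.64 for SAH+Tet minus SAH (exact p = 0.4) and by -0.45 for SAH minus Sham (exact p = 0.8).

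Other Bacteroidales were examined beside it. As a family, Muribaculaceae took 25.1% ± 13.3 in SAH+Tet+ABX and 12.5% ± 4.34 in SAH+Tet. The genus-level feature of that name was not called (edgeR adjusted p = 0.0984). Of the 14 genus-level features of the order outside Prevotellaceae, that one included, 7 fell in SAH+Tet+ABX against SAH+Tet and none rose. Butyricimonas (edgeR adjusted p = 0.00106), Barnesiella (0.00161) and Parabacteroides (0.00223) had the lowest values. None of the 14 was called for SAH+Tet against SAH or for SAH against Sham. Bacteroides, the usual counterpart of Prevotella, took 0.337% ± 0.372 in SAH+Tet+ABX, 0.929% ± 0.285 in SAH+Tet, 1.87% ± 0.321 in SAH and 1.05% ± 0.677 in Sham. Of all Bacteroidota reads, Prevotellaceae made up 6.22%, 14.3% and 15.9% in SAH+Tet+ABX, 33.8%, 44.5% and 21.4% in SAH+Tet, 13.2%, 27.6% and 28.5% in SAH, and 21.5%, 50.2% and 16.9% in Sham.

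Genus-level features of the family followed different other taxa across the 12 libraries. These are Spearman correlations of shares over 12 libraries against 195 other features, given as descriptions, and shares of 1 library and depth class are common to all of them. Prevotella was most like unnamed Prevotellaceae (rho = 0.92), unnamed Spirochaetaceae (0.89) and Fibrobacter (0.89), a genus of cellulose degraders. UCG-003 was most like the Rikenellaceae RC9 gut group, WCHB1-41 and the dgA-11 gut group, each at 0.96, and rho was 0.82 with Prevotella and 0.84 with unnamed Prevotellaceae. The features with reads in every SAH+Tet+ABX library followed others. UCG-001 was most like Harryflintia (0.90) and Alloprevotella most like Hydrogenophaga (0.76). The NK3B31 group was most like Frisingicoccus (0.71), and the Ga6A1 group most like the [Ruminococcus] torques group (0.81). Within the family, Alloprevotella and Prevotella had a rho of -0.03 and the NK3B31 group and unnamed Prevotellaceae one of -0.56.

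Some ASVs of 1 genus kept a nearly fixed ratio of reads across the libraries compared. Ratios were compared for pairs of the 58 ASVs with at least 500 reads, over libraries with 50 reads of the rarer or 200 of the more abundant ASV, where at least 6 libraries qualified. Pairs with 0 reads of either ASV in a qualifying library were left out. The pairs furthest from a fixed ratio are therefore not among those compared. Of the 245 pairs that remained, 6 had a highest ratio within 1.5 times the lowest. All 6 joined ASVs of the same genus, as did 39 of the 245. Alloprevotella ASV 1 and ASV 2 had a median ratio of 4.66 (3.65 to 5.41) over all 12 libraries, although ASV 1 itself ranged from 0.0401% to 3.63%. Prevotella ASV 1 and ASV 3 had a median of 2.50 (2.46 to 2.75) over the 7 higher-depth libraries. UCG-003 ASV 1 and ASV 4 had one of 4.66 (3.74 to 4.92) over 6 libraries. SAH 3, with 186 reads of UCG-003 ASV 1 and none of ASV 4, did not keep this ratio, but was under the minimum and was not compared.

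The last 3 pairs joined Alloprevotella ASV 3, 4 and 5, with medians of 1.06 for ASV 3 to 4, 1.88 for ASV 3 to 5 and 1.72 for ASV 4 to 5 over the 7 higher-depth libraries. These 3 ASVs were absent from SAH+Tet+ABX and SAH+Tet 3. Alloprevotella ASV 3 was at 0.166% and 0.235% in SAH+Tet 1 and 2, 0.148% and 0.0718% in SAH 2 and 3, and 0.0524%, 0.503% and 0.0341% in Sham. Alloprevotella ASV 4 ran beside it, with 0.156% and 0.224% in SAH+Tet 1 and 2 and 0.434% in Sham 2. Alloprevotella held 1 set of ASVs found in all libraries and another found with few exceptions in the higher depth class. Sequences of the ASVs are not in the tables used here, so the distance between paired ASVs was not measured.

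**Figure D5:**
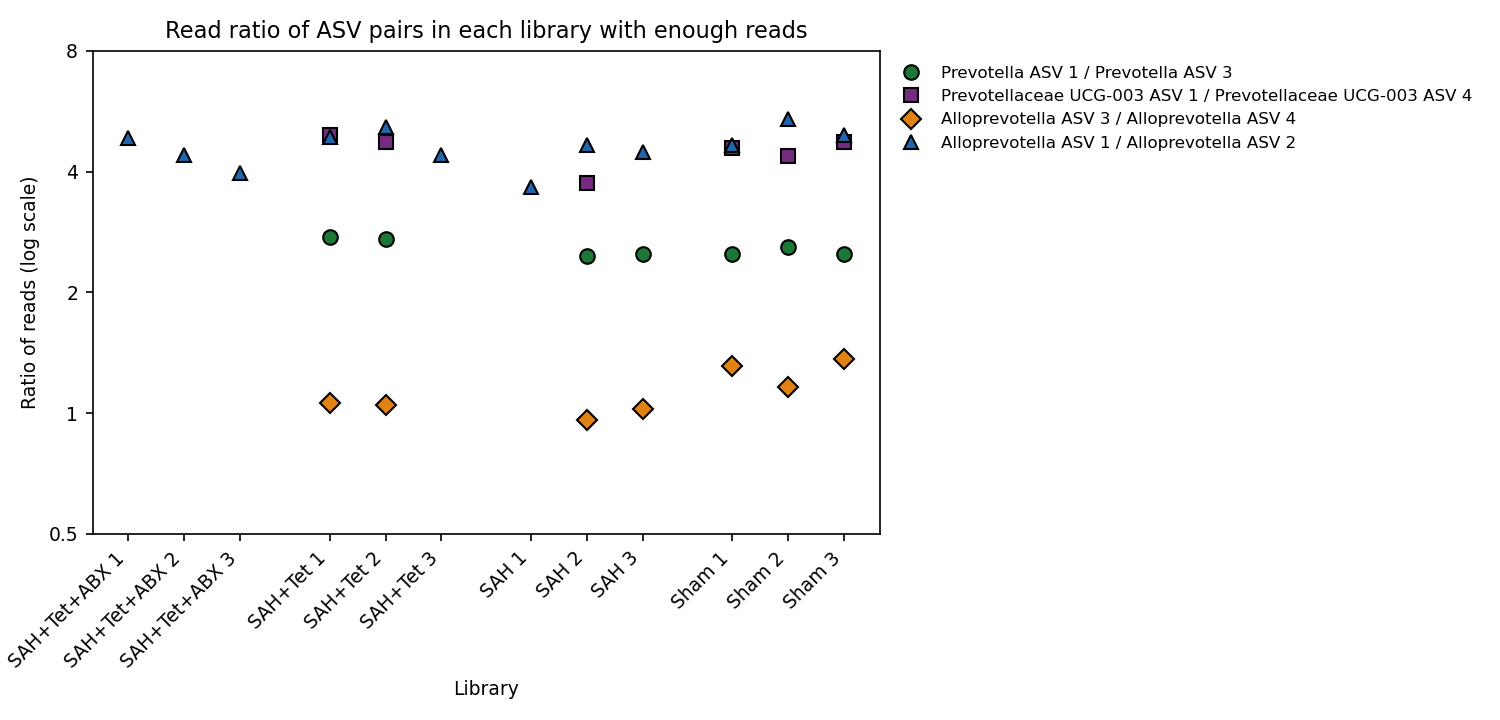
Points give the ratio of reads (log axis) of 4 ASV pairs in each library with enough reads, with libraries on the x axis from SAH+Tet+ABX to Sham. Alloprevotella ASV 1 to ASV 2 stays between 3.65 and 5.41 in all 12 libraries, and Prevotella ASV 1 to ASV 3 between 2.46 and 2.75 in 7.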

How the data were processed

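Faecal DNA was amplified over a region of the 16S rRNA gene and sequenced, per the labels' protocols. The deposited values are counts, unscaled reads per ASV with a lineage, in 1 table of the whole series and 12 per-sample tables that were identical to it. The submitters' processing notes name fastp and cutadapt with no version or settings. The denoiser, chimera filter, primers and reference taxonomy are not stated in the sources used here, and each can change how many ASVs are reported and how far they are named.

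Counts were summed by genus-level and family-level name, 2 ASVs of Eukaryota were left out of the fits, and shares are percent of library reads. edgeR 4.0.16 (quasi-likelihood, TMM) was fitted to the whole table at each level, with features of at least 10 reads in 3 libraries and Benjamini-Hochberg adjustment over all of them. SAH+Tet+ABX against SAH+Tet used all 12 libraries; the other contrasts used the 9 without ABX. SE is the log2 fold change over the root of F. Exact permutation tests enumerated every arrangement of the libraries, and ASV numbers at a common depth are hypergeometric expectations from scipy 1.17.1. Alternatives were DESeq2 1.42.0, limma 3.58.1 on centred log-ratio values, library totals, no filter, fewer libraries and blocks for depth class and replicate number. The fits were tested on simulated data. Replicates of 1 group differed by far more than sampling noise, so none was merged. Same-numbered libraries did not deviate together (3 of 18 correlations above 0.1).

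All genus-level features were named, with the 12 most abundant ASVs, the leading ASV of each feature, up to 3 called ASVs per direction and up to 2 with 0 reads in 1 group. Ratios of ASV pairs, and ASVs outside these rules (NK3B31 ASV 2 to 4, Prevotella ASV 3, Alloprevotella ASV 5 and 8), were chosen after their values were seen. Members and lists were chosen with earlier results of these data known.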

Additional observations from a re-analysis of the deposited data

How the results depend on the processing

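Values with no call changed sign with the scaling, which moved the median of all genus-level features for SAH against Sham to 0.22 with TMM, -0.05 with library totals, 0.01 with DESeq2 and -0.63 with centred log-ratios; causes were not tested unless the setting itself uses fewer libraries or features. The family total was -0.041, -0.067 and -0.55 for SAH against Sham with library totals, DESeq2 and centred log-ratios, -0.039 for SAH+Tet against SAH without SAH 1 and SAH+Tet 3 (also the higher depth class alone). In SAH+Tet+ABX against SAH+Tet it was 0.15, 1.80 and 0.31 with DESeq2, centred log-ratios and the depth block. Leaving out 1 library gave -0.069 to 0.99, -0.11 to 0.46 and -0.57 to 0.37 for these contrasts.

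For SAH+Tet+ABX against SAH+Tet, Alloprevotella was 0.52 with DESeq2, 1.52 with centred log-ratios, 0.13 with no filter, 0.26 with 6 libraries, 0.21 with the depth block, 0.16 without SAH 1 and SAH+Tet 3, and -0.95 to 0.52 leaving out 1 library. UCG-004 was 1.38 with centred log-ratios and 1.12 with the depth block. For SAH against Sham, Prevotella was -1.07, UCG-001 -0.79 and unnamed Prevotellaceae -0.63 with centred log-ratios; with library totals and DESeq2 UCG-001 was -0.095 and -0.052 and unnamed Prevotellaceae -0.21 and -0.059. UCG-003 was 0.29 with the replicate block and 0.12 with the depth block, and Prevotella, for SAH+Tet against SAH, -0.54 and -0.15. Leaving out 1 library gave -0.60 to 1.02 (Prevotella), -0.63 to 0.51 (UCG-001), -1.84 to 1.79 (UCG-003) and -0.65 to 0.53 (unnamed Prevotellaceae) for SAH against Sham, and -0.29 to 1.33 (Prevotella), -1.78 to 0.13 (UCG-003) and -0.21 to 1.05 (unnamed Prevotellaceae) for SAH+Tet against SAH.

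Counts of Prevotellaceae ASVs called moved most. For SAH+Tet+ABX against SAH+Tet, DESeq2 called 52 of 94, against 874 of 2394 in the table. With no filter it was 27 of 237 (281 of 7238), and with 6 libraries 6 of 11 (426 of 772). The replicate block gave 9 of 94 (99 of 2394), and leaving out SAH 1 and SAH+Tet 3 gave 44 of 90 (718 of 2201). Leaving out 1 library gave 0 to 26, against 0 to 493 in the table. For SAH against Sham, DESeq2 called 9 of 93 (407 of 2283) and centred log-ratios 2 of 93 (270 of 2283). With no filter it was 1 of 235 (160 of 6720), and with 6 libraries 3 of 74 (308 of 1703). DESeq2 gave 3 of 93 (294 of 2283) for SAH+Tet against SAH. Among the 4 groups, DESeq2 gave 11 of 94 (506 of 2394) and centred log-ratios 13 of 94 (778 of 2394). No filter gave 37 of 237 (1017 of 7238) and the replicate block 16 of 94 (397 of 2394). The depth block gave 0 of 94 (0 of 2394), and leaving out 1 library 0 to 8 (0 to 487 in the table). Genus-level features differing among the 4 groups numbered 4 of 8 with DESeq2 (100 of 196) and 1 of 8 with the replicate block (20 of 196). Leaving out 1 library gave 1 to 3 (38 to 78 in the table). Over the whole table, SAH+Tet+ABX against SAH+Tet gave 18 higher and 55 lower genus-level calls with edgeR, 38 and 67 with DESeq2, and 41 and 33 with centred log-ratios. The exact p of the ratio to Muribaculaceae was 0.144 with 5 reads added, 0.381 without the logarithm, 0.0816 with the replicate block, 0.363 within depth class, 0.0987 without SAH 1 and SAH+Tet 3 and 0.0664 to 0.403 leaving out 1 library.

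Same-numbered libraries share only a number: 6 of 12 correlated best with their own number, and the block left Prevotella and unnamed Prevotellaceae called for SAH+Tet+ABX against SAH+Tet but not UCG-003 (adjusted p = 0.0800). UCG-003 also lost its call with centred log-ratios (0.15) and was below the filter with 6 libraries. Unnamed Prevotellaceae ASV 7 and UCG-001 ASV 4 lost theirs with no filter and with the replicate block, and UCG-001 ASV 4 with centred log-ratios too, besides its losses leaving out 1 library in 3 of 6 cases (1 of 6 for unnamed Prevotellaceae ASV 7). ASVs under 10 reads in 3 libraries were not tested, and an ASV at 0 has only a bound.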
